A study of Mus musculus with 8 samples.

Results

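The genes described here are 28 enzymes and regulators of cholesterol and fatty acid synthesis, measured in mouse sciatic nerve. They were chosen by name: every array probe carrying 1 of the 28 gene names was collected, and the probe brightest in the nerve channel over all 8 arrays stood for the gene. All 28 were measured, of 15344 gene names that passed the filter on dim probes and 34821 gene names on the array. The nerves of interest came from male SOD1G93A mice at 60 days of age, a transgenic line that expresses mutant human SOD1 and models amyotrophic lateral sclerosis, and the controls were nerves of male wild-type mice, described in the design as non-transgenic, of the same age. There were 4 arrays for each genotype, described as biological replicates, and nothing in the labels says whether an array held 1 animal or several. Each array carried nerve RNA labelled with Cy3 against a common reference labelled with Cy5, RNA pooled from heart, liver and kidney of newborns, in which wild-type and SOD1G93A tissue were mixed. Values are log2 ratios of nerve over that pool, and a difference of 1 is 2-fold.

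Cholesterol is built from acetyl-CoA through mevalonate and squalene, and fatty acids are built from the same precursor by carboxylation, chain growth and desaturation. Both routes are controlled by the sterol regulatory element-binding proteins, membrane-bound transcription factors that are released when sterols are low and are held back by Insig proteins. Myelin is rich in cholesterol and long-chain lipids, and in peripheral nerve the Schwann cells make much of what they use.

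The promoters below are shown because they are the DNA on which these regulators act, and because their genes recur in the results. They belong to an early enzyme (Hmgcs1), the gene with the smallest p in the comparison of genotypes (Hsd17b7) and fatty acid synthase (Fasn). The others belong to Srebf2 and Insig1, which are among the genes that control the sterol response. Each is the 250 bases before the start site from RefSeq on build GRCm38.p6, read 5′ to 3′ along the gene: chr13:119690101-119690350 on the plus strand for Hmgcs1, chr1:169969206-169969455 on the minus strand for Hsd17b7, chr15:82147019-82147268 on the plus strand for Srebf2, chr5:28071162-28071411 on the plus strand for Insig1 and chr11:120824548-120824797 on the minus strand for Fasn. Capitals mark CCAAT, the box recognised by the factor NF-Y, and CACCCCA, the core letters of a sterol regulatory element, on either strand (ATTGG and TGGGGTG). In Fasn a CCAAT and an ATTGG overlap by 2 letters.
Hmgcs1: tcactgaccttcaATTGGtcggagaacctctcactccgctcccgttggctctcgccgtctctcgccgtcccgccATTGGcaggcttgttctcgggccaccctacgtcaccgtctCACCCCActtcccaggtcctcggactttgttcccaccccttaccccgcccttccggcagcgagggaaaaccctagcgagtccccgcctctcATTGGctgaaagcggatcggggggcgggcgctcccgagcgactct
Hsd17b7: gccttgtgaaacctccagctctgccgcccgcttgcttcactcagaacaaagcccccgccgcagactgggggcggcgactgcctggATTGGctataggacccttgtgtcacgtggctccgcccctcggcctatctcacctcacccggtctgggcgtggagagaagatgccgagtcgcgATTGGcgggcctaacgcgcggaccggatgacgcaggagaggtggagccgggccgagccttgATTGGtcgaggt
Srebf2: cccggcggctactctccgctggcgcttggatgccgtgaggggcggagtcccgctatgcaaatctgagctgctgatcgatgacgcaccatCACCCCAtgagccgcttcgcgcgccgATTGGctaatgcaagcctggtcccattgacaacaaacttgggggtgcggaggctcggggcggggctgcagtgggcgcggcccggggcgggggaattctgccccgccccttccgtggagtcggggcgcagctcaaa
Insig1: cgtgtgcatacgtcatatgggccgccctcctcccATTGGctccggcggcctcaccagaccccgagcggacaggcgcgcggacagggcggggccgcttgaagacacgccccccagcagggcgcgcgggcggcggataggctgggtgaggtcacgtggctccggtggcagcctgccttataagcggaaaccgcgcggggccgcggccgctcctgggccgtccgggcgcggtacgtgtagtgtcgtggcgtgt
Fasn: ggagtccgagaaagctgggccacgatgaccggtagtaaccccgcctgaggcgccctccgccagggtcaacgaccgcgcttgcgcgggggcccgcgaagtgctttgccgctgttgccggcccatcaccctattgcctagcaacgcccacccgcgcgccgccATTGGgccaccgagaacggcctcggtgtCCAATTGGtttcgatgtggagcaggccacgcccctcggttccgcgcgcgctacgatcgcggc

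A promoter was found for 22 of the 28 genes. Fads1, Sqle, Scd1, Scd2, Fdft1 and Fdps had no entry in the table used. CCAAT stood in 17 of the 22, against 37.5% of all 27025 genes with a window of the same length. Among the fatty acid genes with a window, Fasn alone held it, and Acaca, Acly, Elovl6 and Fads2 did not, nor did Acat2. GGGCGG, the GC box bound by Sp1, stood in 18 of the 22, against 35.4% of genes. CACCCCA was present in 3 of the 22 (Hmgcs1, Srebf2 and Acat2), against 7.65% of genes, and CACGTG, an E-box, in 4 (Hsd17b7, Insig1, Dhcr7 and Sc5d), against 6.86%. In these windows each motif was searched on both strands. A match describes the letters only, and these promoters were not measured here.

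Nearly all the genes stood above the organ pool in nerve. The median of the 28 ratios was 1.76, against 0.07 over all kept genes, and 23 of the 28 averaged at least 2-fold above the pool, where 13.8% of kept genes did. None averaged 2-fold below it, where 9.28% did. On every one of the 8 arrays 27 of the 28 lay above the pool, against 38.5% of kept genes, and Srebf2 was the exception. All 28 probes were well above background in both dyes on all 8 arrays. These ratios have no test, because the reference was 1 pool that was always in Cy5. In RNA from whole nerve, more cells of a type and more RNA per cell cannot be told apart.

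**Figure D1:**
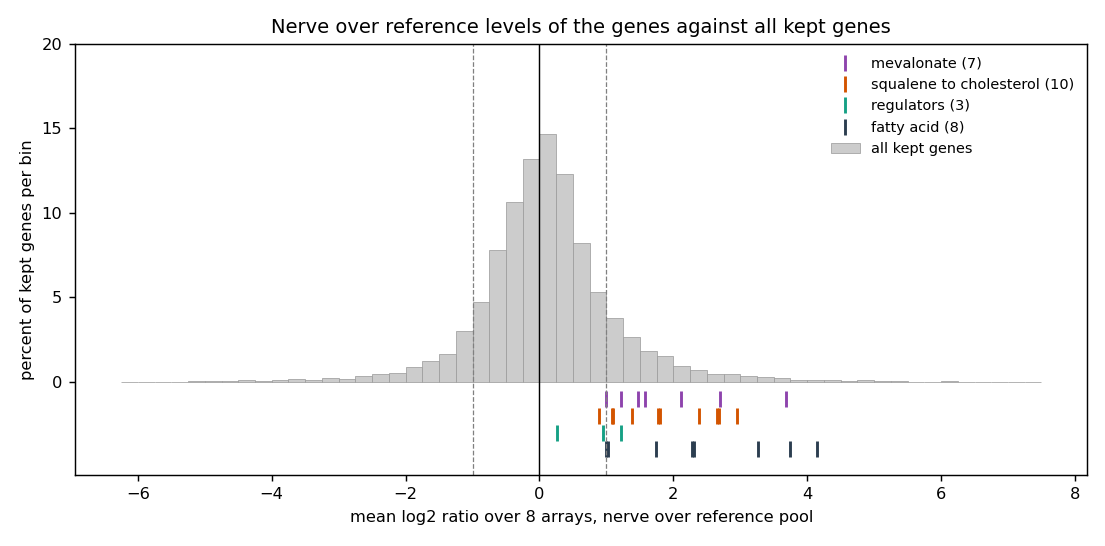
Distribution of the mean log2 ratio of nerve over the organ pool for all 15344 kept genes (grey bars, percent of genes in each bin) with the 28 genes as ticks below, in a row for each role. Dashed lines mark 2-fold; 23 of the 28 ticks lie to the right of the upper line and none to the left of the lower.

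The mevalonate genes ran between 0.99 for Acat2 and 3.69 for Hmgcs1. Hmgcs1, which joins acetyl-CoA and acetoacetyl-CoA into the precursor of mevalonate, had ratios of 4.29, 3.59, 3.67 and 3.77 in the SOD1G93A nerves, against 2.65, 3.81, 3.62 and 4.09 in the wild-type nerves. The lowest of the 8 was wild-type replicate 1 and the highest SOD1G93A replicate 1, and the groups overlapped. Idi1, the isomerase that supplies the branched building blocks of isoprenoids, averaged 2.71 ± 0.11 in SOD1G93A nerves and 2.68 ± 0.51 in wild-type nerves (SD, n = 4 each). Fdps, which condenses those units into farnesyl diphosphate, averaged 2.13 ± 0.14 in SOD1G93A nerves and 2.12 ± 0.47 in wild-type nerves. For both genes the wild-type spread was the wider, since wild-type replicate 1 lay at 1.94 for Idi1 and 1.41 for Fdps. The kinases and the decarboxylase of the pathway, Mvk, Pmvk and Mvd, averaged 1.58, 1.21 and 1.47 over all 8 arrays. Acat2, the cytosolic thiolase at the head of the pathway, averaged 0.99, just under 2-fold.

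From squalene to cholesterol the highest ratio was that of Sc5d, the sterol desaturase near the end of the route. Its values were 3.18, 2.86, 2.75 and 2.83 in SOD1G93A nerves, against 2.60, 3.32, 2.92 and 3.15 in wild-type nerves. Sqle, the squalene epoxidase that catalyses a rate-controlling oxygenation, gave 2.72, 2.74, 2.51 and 2.75 in SOD1G93A nerves, against 2.10, 2.80, 2.90 and 2.92 in wild-type nerves. In both genes the lowest array was wild-type replicate 1, and the other wild-type arrays lay above SOD1G93A replicates 2 to 4. Tm7sf2, a sterol reductase, averaged 2.62 ± 0.20 in SOD1G93A nerves and 2.69 ± 0.72 in wild-type nerves (SD, n = 4 each), the widest wild-type spread of the 28 genes. Fdft1, the squalene synthase that commits farnesyl diphosphate to sterols, averaged 2.38 over all arrays, Lss, which closes the sterol rings, 1.80, Hsd17b7 and Nsdhl, which act in removing methyl groups from the ring, 1.77 and 1.38, Ebp, an isomerase of the sterol ring, 1.11, and Dhcr7, which makes the last reduction to cholesterol, 1.08. Cyp51, the lanosterol demethylase, was the only gene of this group under 2-fold, at 0.89.

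The regulators had the lowest median ratio of the 4 roles, 0.94, against 1.58 for the mevalonate genes, 1.79 for the genes from squalene to cholesterol and 2.29 for the fatty acid genes. Srebf2, the gene for the factor that drives sterol synthesis, had 0.60, 0.04, 0.26 and 0.34 in SOD1G93A nerves, against -0.09, 0.44, 0.09 and 0.44 in wild-type nerves. It was the gene nearest to the organ pool, and lay below it on wild-type replicate 1 alone. Srebf1, whose product acts chiefly on fatty acid genes, averaged 0.94 over the 8 arrays, and Insig1, itself a target of these factors, 1.22.

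Among the fatty acid genes Scd2, a stearoyl-CoA desaturase of neural tissue, had the highest ratio of all 28, with 4.00, 4.26, 4.07 and 4.17 in SOD1G93A nerves, against 3.65, 4.14, 4.43 and 4.41 in wild-type nerves. Elovl6, which lengthens palmitate, averaged 3.69 ± 0.19 in SOD1G93A nerves and 3.79 ± 0.33 in wild-type nerves (SD, n = 4 each). Both stood far above the pool on every array. Fads1, a desaturase of polyunsaturated fatty acids, averaged 3.27 over all arrays, Acaca, the carboxylase that makes malonyl-CoA, 2.31, Fads2, the partner desaturase, 1.74, Acly, which supplies cytosolic acetyl-CoA, 1.02, and Fasn 0.99. The genes nearest the 2-fold line were Acly, Dhcr7 and Ebp just above it and Fasn, Acat2 and Srebf1 just below it. For 9 genes more than 1 probe passed the filter, and the ratio differed most between the 4 probes of Acaca, from 0.46 to 2.31. The Acaca probe at 0.46 was dim, well above background on only 4 arrays in Cy3 and 2 in Cy5. Another Acaca probe, at 2.14, is placed on chromosome 12, whereas the probe in use is on chromosome 11. The brightest Fads2 probe was the only probe in use whose accession had no match in the RefSeq gene table. The other Fads2 probe, which carries the gene's RefSeq accession, gave 0.86, under 2-fold. The dimmer kept probes of Nsdhl and Acly were also under 2-fold, at 0.77 and 0.40.

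**Figure D2:**
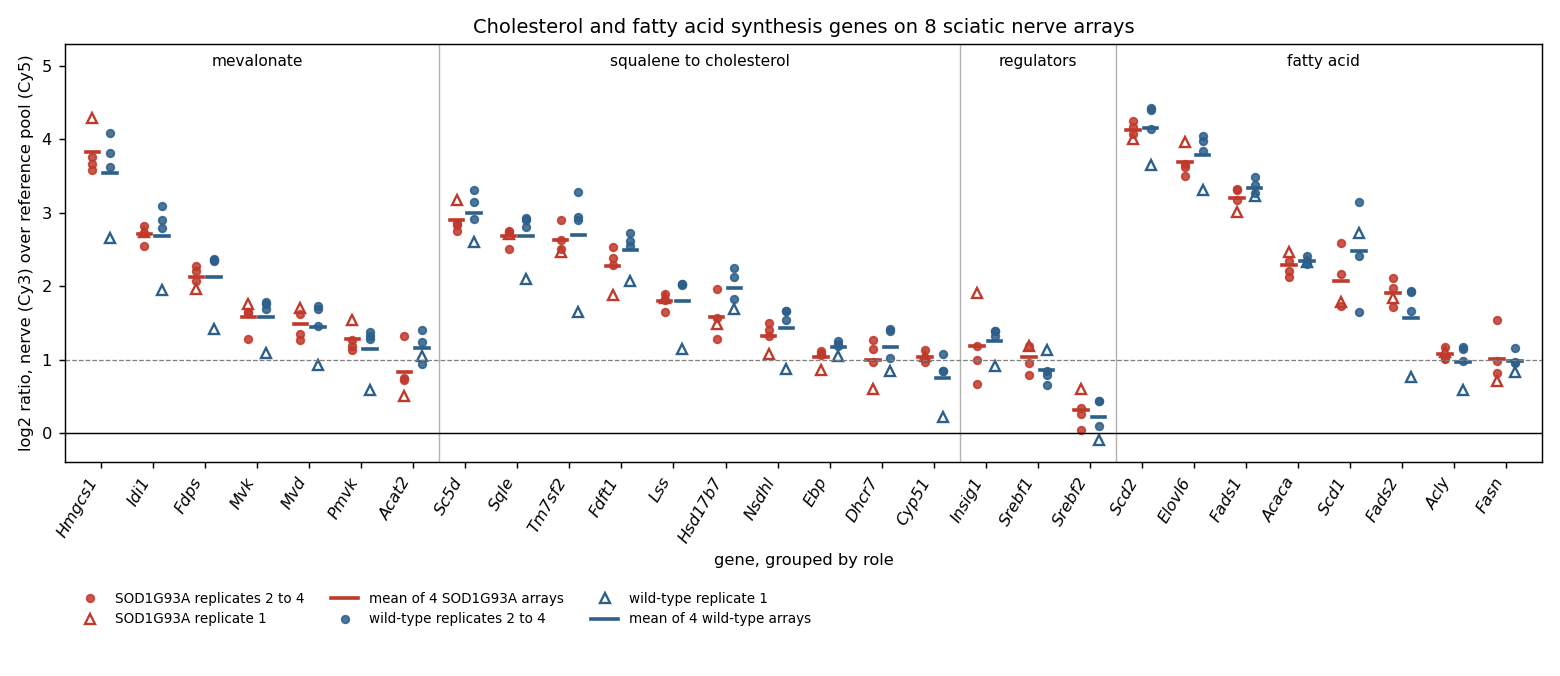
Log2 ratio of nerve over the organ pool for each of the 28 genes, grouped by role, with the 4 SOD1G93A arrays in red to the left and the 4 wild-type arrays in blue to the right of each position; short bars are group means, triangles are the arrays numbered 1, and the dashed line is 2-fold. The wild-type triangle is the lowest of the 8 points for 17 of the 28 genes.

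The arrays differed in brightness and in cell type markers, and the arrays numbered 1 stood apart. The median raw Cy3 intensity over kept genes was 436 on SOD1G93A replicate 1, the lowest, against 877 on wild-type replicate 1, the highest, and lay between 627 and 723 on the other arrays. Between 35.5% and 41.7% of spots were well above background in Cy3, with the highest share on wild-type replicate 1, no spot was saturated, and Pearson's r between arrays over genes ran from 0.88 to 0.98. The first principal component, with 36.4% of the variance, set wild-type replicate 1 (33.7) and SOD1G93A replicate 1 (-30.4) at opposite ends. The part of brightness in the values below was not tested. All 12 myelinating Schwann cell markers, led in brightness by Prx, Mal and Pmp22, were at least 2-fold above the pool, so the markers of the labelled tissue were present. Of 7 hepatocyte markers 3 passed the filter, all 2-fold or more below the pool. The array position numbers split by genotype, so position on the slide and genotype cannot be told apart.

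SOD1G93A and wild-type nerves were compared gene by gene to ask whether the pathway differed between them at 60 days. In limma's moderated test with Benjamini-Hochberg adjustment over all 15344 genes, 0 of the 28 were called at an adjusted p under 0.05, against 0.163% of all genes, and the smallest adjusted p was 0.417. At an unadjusted p under 0.05 there was 1 of 28, against 11.4% of all genes. For none of the 28 did the SOD1G93A arrays lie entirely above the wild-type arrays (3.65% of genes) or entirely below them (4.3%; 7.95% in either direction). The differences, SOD1G93A minus wild-type, ran from -0.41 for Scd1 to 0.34 for Fads2 with a median of -0.02, the same as the median over all genes, and 17 of 28 were below 0, against 54.7% of genes. Half-widths of the 95% intervals lay between 0.19 and 0.69, so a difference of 2-fold in either direction was outside the interval of every gene but Scd1, whose interval ran from -1.10 to 0.28.

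The gene with the smallest p was Hsd17b7, at 1.49, 1.96, 1.28 and 1.57 in SOD1G93A nerves, against 1.69, 1.82, 2.25 and 2.13 in wild-type nerves. SOD1G93A replicate 2 lay inside the wild-type range and the other SOD1G93A arrays below it. The difference was -0.40 ± 0.17 (SE; 95% interval -0.78 to -0.02), with an unadjusted p of 0.0415 and an adjusted p of 0.417 in limma. The other kept probe of the gene gave -0.39. Next came Acat2, with 0.51, 1.32, 0.72 and 0.75 in SOD1G93A nerves, against 1.05, 0.94, 1.40 and 1.24 in wild-type nerves, a difference of -0.34 ± 0.17 (SE) with an adjusted p of 0.507 in limma.

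Among the mevalonate genes 5 differences were above 0 and 2 below, with Hmgcs1 at 0.28 ± 0.29 (SE) the highest. From squalene to cholesterol 9 of 10 were below 0, and the exception was Cyp51, at 1.04, 1.14, 0.96 and 1.02 in SOD1G93A nerves, against 0.21, 1.08, 0.85 and 0.84 in wild-type nerves. The groups overlapped through wild-type replicate 2, and the difference of 0.30 ± 0.17 (SE) had an adjusted p of 0.531 in limma. Srebf1 differed by 0.18 ± 0.13 (SE), Srebf2 by 0.09 ± 0.16 and Insig1 by -0.06 ± 0.24. Of the 8 fatty acid genes 3 were above 0 (Fads2, Acly and Fasn) and 5 below. For Mvk, Nsdhl, Acaca and Fads2 different probes of the gene gave differences of opposite sign, with the kept probes of Fads2 at 0.34 and -0.13.

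Wild-type replicate 1 had the lowest of the 8 ratios for 17 of the 28 genes, against 17.5% of all genes, and this included 6 of the 7 mevalonate genes. SOD1G93A replicate 1 was the lowest for 6 genes (30.7% of all genes) and the highest for 5 (24.5%). Taken as the median deviation of the 28 genes from their own means over the 8 arrays, the SOD1G93A arrays stood at 0.04, 0.08, -0.10 and 0.02, against -0.43, 0.14, 0.14 and 0.20 in the wild-type arrays. Wild-type replicate 1 therefore lay lower than any other array, and wild-type replicates 2 to 4 higher than every SOD1G93A array. Lss, for example, had 1.83, 1.81, 1.65 and 1.89 in SOD1G93A nerves, against 1.15, 2.03, 2.01 and 2.03 in wild-type nerves.

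Markers of other cell types also differed between arrays, and the lists did not share a pattern. On wild-type replicate 1 the muscle markers deviated by 2.85 and the adipocyte markers by 0.88, with the 28 genes at -0.43. On wild-type replicate 2 the muscle markers deviated by 1.81 and the adipocyte markers by 0.95, with the 28 genes at 0.14. The 7 measured skeletal muscle markers, of which Pvalb, Tnnt3 and Tnnc2 were the brightest, had a summed Cy3 level of 1122 to 1516 in SOD1G93A nerves, against 1376 to 43824 in wild-type nerves, with wild-type replicate 1 the highest and wild-type replicate 2 next at 15647. The 12 measured adipocyte markers, led by Cfd, Fabp4 and Car3, summed to 42400 to 155561 in SOD1G93A nerves, against 100578 to 360691 in wild-type nerves, again highest on wild-type replicate 1. The 12 myelinating Schwann cell markers summed to 353468 to 487816 in SOD1G93A nerves, against 292370 to 447021 in wild-type nerves, with wild-type replicate 1 the lowest and SOD1G93A replicate 1 the highest. Of the other lists, the 6 endothelial markers (Kdr, Robo4 and Cdh5 the brightest) summed to 2615 to 3669 in SOD1G93A nerves and 3183 to 4388 in wild-type nerves, and the 6 macrophage markers (Csf1r, C1qa and Cd68 the brightest) to 6544 to 15120 in SOD1G93A nerves and 7569 to 9707 in wild-type nerves. The 3 kept hepatocyte markers (Serpina1a, Alb and Fgb) summed to 1461 to 2720 in SOD1G93A nerves and 1681 to 2209 in wild-type nerves. Lep of the adipocyte list, Mylpf of the muscle list and Apoa1, Ttr, Afp and Apob of the hepatocyte list did not pass the filter. The part of any of these lists in the lipid gene values was not tested.

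**Figure D3:**
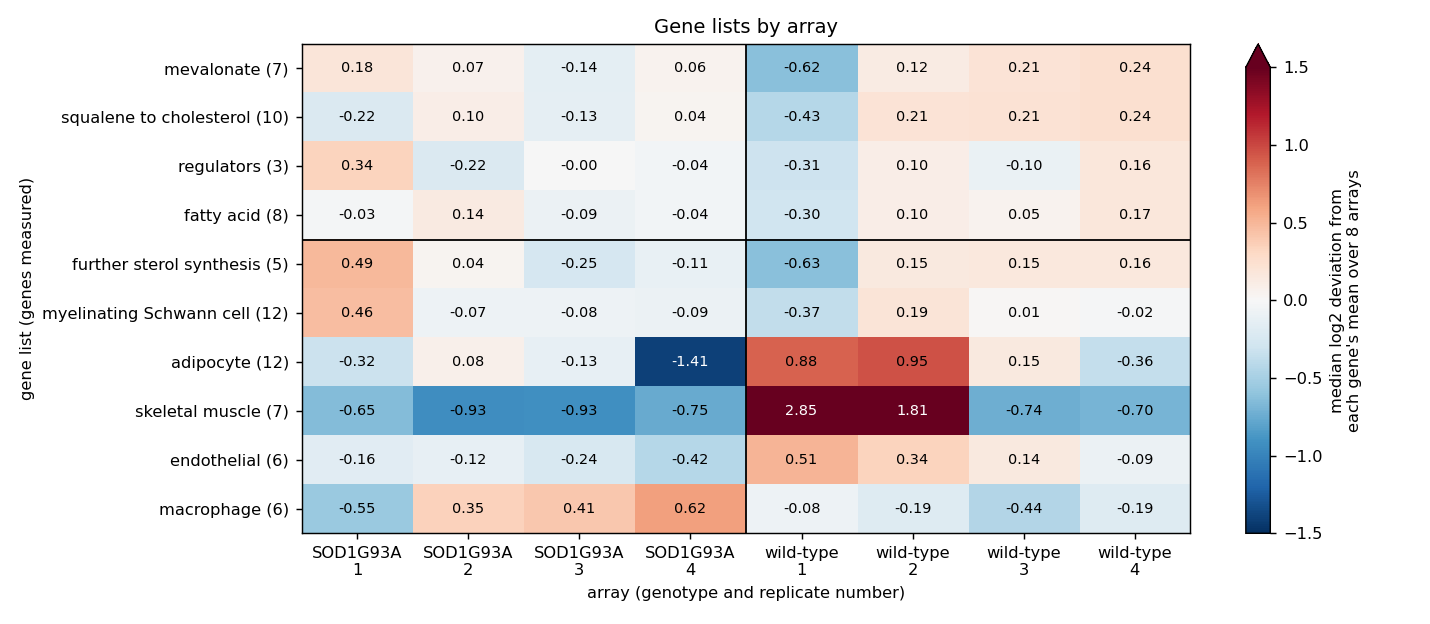
Median log2 deviation of each gene list from its genes' own means over the 8 arrays, by array, SOD1G93A on the left and wild-type on the right; blue is lower and red is higher, and the number of genes measured follows each name. The mevalonate genes stand at -0.62 and the squalene to cholesterol genes at -0.43 on wild-type replicate 1, where skeletal muscle markers stand at 2.85 and myelin markers at -0.37. On wild-type replicate 2 these 2 gene groups stand at 0.12 and 0.21, with skeletal muscle markers at 1.81 and myelin markers at 0.19.

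Without the arrays numbered 1 most differences lay below 0, and again no gene was called. On the 6 arrays numbered 2 to 4, 24 of the 28 genes were lower in SOD1G93A nerves than in wild-type nerves, against 52.2% of all genes, with a median difference of -0.19, against -0.01 over all genes. The limma test with Benjamini-Hochberg adjustment called 0 of the 28, against 1.53% of all genes. At an unadjusted p under 0.05 there were 9 of 28, all lower in SOD1G93A nerves, against 17.4% of genes in either direction. The 3 SOD1G93A arrays lay entirely below the 3 wild-type arrays for 12 of the 28, against 13% of genes, and entirely above for 0, against 11%. Leaving out wild-type replicate 1 alone gave 25 lower genes, against 55.3% of all genes, and the same median difference of -0.19. Leaving out SOD1G93A replicate 1 alone gave 18 lower genes, against 51.4% of all genes, and a median of -0.02. With any other single array of the 8 left out, between 12 and 19 of the 28 were lower. When each of the 6 arrays was left out in turn, between 23 and 25 of the 28 were below 0, and 0 were called. All of these fits lacked wild-type replicate 1, so they cannot show whether the direction holds with that array.

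The smallest p on the 6 arrays was that of Elovl6. On arrays 2 to 4 it had 3.63, 3.50 and 3.67 in SOD1G93A nerves, against 3.84, 3.97 and 4.05 in wild-type nerves. The groups did not overlap, and the difference was -0.36 ± 0.08 (SE), with an adjusted p of 0.100 in limma, short of the threshold. The arrays numbered 1 ran the other way, at 3.96 in the SOD1G93A nerve and 3.31 in the wild-type nerve, and with all 8 arrays the difference was -0.10 ± 0.17.

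Insig1 had the second smallest p on the 6 arrays. It stood at 0.99, 0.67 and 1.19 on SOD1G93A arrays 2 to 4, against 1.32, 1.39 and 1.39 on the wild-type arrays 2 to 4, a difference of -0.42 ± 0.13 (SE) with an adjusted p of 0.168 in limma. SOD1G93A replicate 1, at 1.91, lay above all other arrays, and with all 8 arrays the difference was -0.06. The largest difference on the 6 arrays was that of Hsd17b7, at -0.46 ± 0.19 (SE), close to its value over all 8 arrays.

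By role, all 7 mevalonate genes were below 0 on the 6 arrays, between -0.27 for Acat2 and -0.13 for Pmvk, and none had an unadjusted p under 0.05. From squalene to cholesterol 9 of 10 were below 0 and 7 of these had an unadjusted p under 0.05, where 17.4% of all genes did (Tm7sf2, Sc5d, Lss, Fdft1, Nsdhl, Sqle and Hsd17b7). Tm7sf2 differed by -0.36 ± 0.14 (SE), Sc5d by -0.31 ± 0.11 and Lss by -0.24 ± 0.08. Cyp51 was higher by 0.12 ± 0.09. Srebf1 was higher by 0.22 ± 0.11 and Srebf2 lower, at -0.11 ± 0.12. Of the fatty acid genes Fasn, at 0.09 ± 0.18, and Fads2, at 0.09 ± 0.12, were above 0 and 6 were below. The 12 myelinating Schwann cell markers showed the same direction, with 11 of 12 lower in SOD1G93A nerves on the 6 arrays and a median of -0.15, whereas over all 8 arrays 10 of 12 were higher, with a median of 0.11. Other lists also differed on the 6 arrays. All 6 macrophage markers were higher in SOD1G93A nerves, with a median of 0.75 and 3 called in limma. All 12 adipocyte markers (median -0.66), all 7 skeletal muscle markers (median -1.20) and all 6 endothelial markers (median -0.34, 1 called) were lower. The muscle difference came mostly from wild-type replicate 2, at a median deviation of 1.81, against -0.74 and -0.70 on wild-type replicates 3 and 4. SOD1G93A replicates 2 to 4 stood at -0.93, -0.93 and -0.75. In limma 0 of the 7 muscle markers had an unadjusted p under 0.05 on the 6 arrays. Whether the lipid genes differed more than the myelin markers, and the part of the other lists, was not tested.

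**Figure D4:**
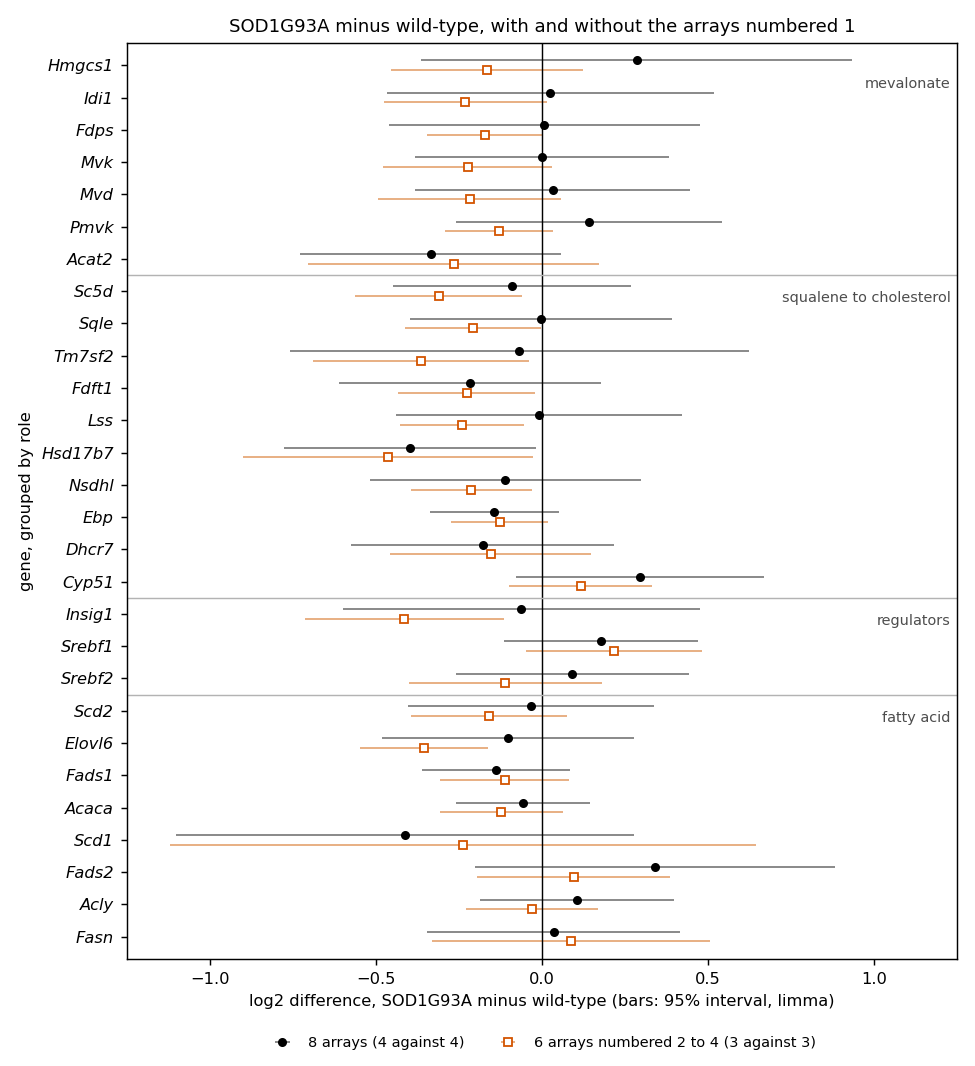
Log2 difference, SOD1G93A minus wild-type, for the 28 genes by role, with limma's 95% interval; black circles use all 8 arrays and open orange squares the 6 arrays numbered 2 to 4. Black circles lie on both sides of 0 (11 above, 17 below), while 24 of the 28 squares lie below 0; no gene passed an adjusted p under 0.05 in either fit.

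Scd1, a desaturase abundant in fat, had the lowest difference over 8 arrays, -0.41 ± 0.31 (SE, adjusted p 0.638 in limma). Its ratios were 1.79, 2.59, 2.17 and 1.73 in SOD1G93A nerves, against 2.72, 3.14, 1.65 and 2.41 in wild-type nerves. The adipocyte markers deviated by -0.32, 0.08, -0.13 and -1.41 on the same SOD1G93A arrays, against 0.88, 0.95, 0.15 and -0.36 on the wild-type arrays. Both were highest on wild-type replicates 1 and 2, and of the 8 fatty acid genes among the 28 Scd1 was the only such gene. Their lowest arrays differed, wild-type replicate 3 for Scd1 and SOD1G93A replicate 4 for the adipocyte markers. The part of the adipocyte genes in the value of Scd1 was not tested. Scd2, the related desaturase, was instead lowest on wild-type replicate 1.

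Further genes of these pathways were measured, 26 in number. In the 8-array limma fit 0 of the 26 were called, against 0.163% of all genes, and 2 had an unadjusted p under 0.05, against 11.4%. Of the differences 12 were above 0 and 14 below. At least 2-fold above the pool were 15, against 13.8% of all genes, and 1 was 2-fold below, Acacb, the carboxylase that restrains fatty acid oxidation. Acacb had -1.30, -1.30, -1.56 and -1.94 in SOD1G93A nerves, against -0.40, -0.56, -1.24 and -1.29 in wild-type nerves, with no overlap, a difference of -0.65 ± 0.23 (SE) and an adjusted p of 0.332 in limma. Like Scd1 it was highest on wild-type replicates 1 and 2, and among the wild-type arrays the same held for Thrsp. The list did not share this pattern: 3 of the 9 further fatty acid genes were lowest of all 8 arrays on wild-type replicate 1.

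Mylip, a ligase induced by oxysterol receptors that degrades the LDL receptor, had 1.19, 1.40, 1.38 and 1.35 in SOD1G93A nerves, against 0.99, 0.93, 1.21 and 1.19 in wild-type nerves, a difference of 0.25 ± 0.09 (SE, adjusted p 0.364 in limma). The groups overlapped through SOD1G93A replicate 1. Thrsp, a lipogenic protein abundant in fat, differed by -0.74 ± 0.39 (SE, adjusted p 0.512 in limma). Of the 5 further sterol synthesis genes measured, 4 were lower on the 6 arrays, with a median of -0.26, and 3 of the 5 were lowest on wild-type replicate 1. All 6 genes of sterol sensing and uptake were lower on the 6 arrays (median -0.14). Of the 6 genes listed with oxysterol receptors and sterol export (Nr1h2, Nr1h3, Abca1, Abcg1, Mylip and Soat1) 5 were higher (median 0.11). Mylip and Soat1 are neither receptors nor exporters, and Nr1h2 was higher by only 0.03. The 9 further fatty acid genes split into 5 lower and 4 higher (median -0.09). Over all 26 there were 16 lower and 10 higher, with a median of -0.09, against 52.2% lower and a median of -0.01 over all genes.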

How the data were processed

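Each array was scanned and read with Agilent Feature Extraction 11.5.1.1 per the file headers (the submitters' processing notes name 11.0.1.1 and limma). The deposited scanner files give the mean spot intensity and local background intensity in both dyes, flags per spot and a log10 ratio of Cy5 over Cy3; probe positions are on mm9. The deposited series table holds that same log10 ratio (largest difference 0), with 30.7% of values at exactly 0, and was used as an alternative with its sign turned. From the intensities, limma 3.58.1 in R 4.3.3 applied normexp (offset 50) and loess within each array, control spots and outlier-flagged spots having weight 0 and flagged spots then left out; probes were averaged and expressed as log2 of Cy3 over Cy5. Probes were kept when their Cy3 signal was flagged well above background on 4 or more of the 8 arrays (19839 of 55681), and the brightest kept probe stood for each gene name. Of 42 probes for the 28 genes 39 were kept; gene names are the array's, and 27 of the 28 accessions matched the RefSeq gene table. No array value of the 28 was missing. Genotypes were compared with lmFit and eBayes on 4 against 4 arrays, 2-sided, with Benjamini-Hochberg adjustment over all kept genes; the fit was tested on simulated data. Cy3 levels of marker lists come from loess followed by Aquantile normalization. The labels do not say that replicates came from separate litters or days, and p-values measure the spread between these arrays. Their number, 8, limits the precision.

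The labels do not say that the replicate numbers pair animals, so no pairing was used. Deviations of same-numbered arrays had correlations of -0.16, 0.04, -0.11 and 0.10 for numbers 1 to 4, which cannot exclude a pairing. The genes and lists were chosen with earlier results of these data known. Named are every gene by its role; of the other pathway genes those called, and otherwise the 3 with the smallest p; and of each marker list the 3 brightest in Cy3. The alternatives left out each array or both arrays numbered 1 and varied the normalization, channel, filter, choice of probe, weights and block; the counts on the 6 arrays numbered 2 to 4 with a further array removed were chosen after seeing the data.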

Additional observations from a re-analysis of the deposited data

Results flagged for a closer look

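Within a group of 4 arrays, an array is listed here when its gap to the nearest other array made up a share of the group's range above Dixon's critical value (95%), which chance alone does in about 1 of 20 groups. It happened in 8 of the 56 groups examined, and 7 of the 8 were wild-type replicate 1 at the low end. Its log2 ratio of nerve over the pool was 1.08 for Mvk, 0.59 for Pmvk, 1.41 for Fdps, 2.10 for Sqle, 1.15 for Lss, 0.87 for Nsdhl and 0.92 for Insig1. The nearest other wild-type array stood at 1.69 for Mvk, 1.28 for Pmvk, 2.34 for Fdps, 2.80 for Sqle, 2.01 for Lss, 1.54 for Nsdhl and 1.32 for Insig1. The remaining case was Sqle on SOD1G93A replicate 3, at 2.51, with the next SOD1G93A array at 2.72. These 28 genes share their arrays, so the 8 cases are not independent.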

How the results depend on the processing

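In all 18 alternatives 0 of the 28 genes were called between genotypes. The median difference of the 28, -0.02 over all arrays, lay between -0.19 (without wild-type replicate 1, and on the 6 arrays) and 0.05 (without wild-type replicate 2); it was 0.033 when SOD1G93A replicate 3 was removed, 0.032 and 0.034 when the wild-type array numbered 3 or 4 was, and -0.12 with array weights. Of the 504 differences recomputed for single genes, 59 changed sign and the causes were not tested. Leaving out each array in turn, the range that crossed 0 was -0.021 to 0.17 for Acly, -0.14 to 0.14 for Fasn, -0.23 to 0.089 for Fdps, -0.012 to 0.47 for Hmgcs1, -0.22 to 0.16 for Idi1, -0.30 to 0.11 for Insig1, -0.23 to 0.066 for Lss, -0.14 to 0.12 for Mvd, -0.17 to 0.10 for Mvk, -0.043 to 0.22 for Pmvk, -0.22 to 0.017 for Sc5d, -0.20 to 0.057 for Scd2, -0.20 to 0.078 for Sqle, -0.013 to 0.18 for Srebf2 and -0.42 to 0.13 for Tm7sf2. On the 6 arrays numbered 2 to 4 it was -0.029 for Acly, -0.17 for Fdps, -0.17 for Hmgcs1, -0.23 for Idi1, -0.22 for Mvd, -0.13 for Pmvk and -0.11 for Srebf2. With the deposited series table it was -0.030 for Fdps, 0.16 for Lss and 0.055 for Tm7sf2. With scale normalization it was -0.010 for Fdps and -0.0006 for Idi1. With median centring it was -0.0039 for Fasn, -0.012 for Mvd and 0.0036 for Sqle. With Cy3 alone it was 0.048 for Insig1 and -0.0082 for Srebf2. With the mean of all probes it was 0.023 for Mvk. With array weights it was -0.082 for Fdps, -0.12 for Idi1, -0.16 for Mvd, -0.031 for Pmvk and -0.0034 for Srebf2. The count of genes called over the whole array, 25 (11 higher, 14 lower), was 3 to 180 when 1 array was left out (180 without SOD1G93A replicate 1, 3 without SOD1G93A replicate 4 or wild-type replicate 2 or 3), 234 on the 6 arrays, 6 with the series table (2 higher, 4 lower), 1 with median centring (0 higher, 1 lower), 16 without the filter, 420 with array weights and 1 with the replicate number as a block, where 0 of the 28 were called; with Cy3 alone the split was 23 higher and 13 lower. The block was run on the 8 arrays only, and the labels do not say whether the numbers pair the arrays. The counts at least 2-fold above and below the pool stayed within 1.5 times in all 15 alternatives that gave them, and 14 of 420 single ratios moved by more than their spread. With 4 arrays a group, differences smaller than the intervals given above could not be resolved.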
